A study of Rattus norvegicus with 5 samples.

Results

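H4K5Ac is histone H4 acetylated at the lysine residue 5. Narrow isolated strong H4K5Ac windows are places in the genome where tags of chromatin carrying this mark piled up over 1 or 2 kb, with no other enriched place within 10 kb. They were chosen by their tags in all 4 ChIP libraries together. The genome was read in 1 kb windows that do not overlap, and 2539 of the 2558310 windows on chromosomes 1 to 20 met the rule. A window needed a sum of 40 or more tags over the 4 ChIP libraries and a ratio of 3 or more, where the ratio sets the summed ChIP tags against the input tags plus 1, both as normalised tag counts. A normalised tag count is the number of tags per 1000000 tags of the library on chromosomes 1 to 20. It also had to lie in a run of at most 2 consecutive windows with a sum of 27 or more and a ratio of 2 or more, and no other such run could be within 10 kb. The sum, the ratio, the run length and the isolation are therefore what the windows were selected on, and they are described below without a test.

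The tags came from the dorsal striatum of male Sprague-Dawley rats. In the SS group, saline-pretreated rats received a saline challenge (4 animals), and in the SM group they received 5 mg/kg of METH (methamphetamine; 3 animals). METH-pretreated rats received saline in the MS group (3 animals) or 5 mg/kg of METH in the MM group (4 animals). Pretreatment injections were given over 2 weeks, and tissue was taken 2 h after the challenge injection. Tissue of all animals in a group went into a single library, and 1 input library from 4 animals labelled untreated served all groups, so a difference between groups cannot be told apart from one between libraries and has no replicate check. On chromosomes 1 to 20 8473721 tags came from the SS library, 12358684 from SM, 5728791 from MS, 9107143 from MM and 17471509 from the input. Whole striatal tissue was used, so fewer cells that carry the mark and less of the mark per cell cannot be told apart. No cell type markers were checked, since the tags were not assigned to genes here.

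Acetylation of lysines in the tail of histone H4 removes their positive charge and loosens the hold of the tail on DNA, and bromodomain proteins bind the acetylated tails. The mark is known from promoters and enhancers of active genes. Most neurons of the striatum are GABAergic projection neurons that receive dopamine, and METH releases dopamine there. The windows are given by their position on the rn4 build of the rat genome. No gene annotation or sequence of that build was used here, so which genes lie at the windows was not analysed.

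Strong windows, those with a sum of 40 or more and a ratio of 3 or more, numbered 11667. Most of them were not isolated. Of the strong windows, 3683 lay in runs of 3 or more windows, here called broad runs, and 5445 lay in short runs with another run within 10 kb. The 2539 narrow isolated windows, 21.8% of the strong ones, were held by 2316 runs. Runs of a single window held 1242 of them, and runs of 2 windows held 1297, with both windows counted in 223 runs and only 1 in 851 runs.

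Their summed tags ranged from 40 to 288 with a median of 64, and their ratio ranged from 3 to 22.5 with a median of 3.59. The input held a median of 7 tags in them, the same as the median of all windows on these chromosomes, with a range from 0 to 43. The nearest other run was 11 to 1576 kb away, with a median of 23 kb. In single libraries the median was 15 tags in SS (range 2 to 57), 21 tags in SM (4 to 110), 12 tags in MS (1 to 59) and 17 tags in MM (2 to 77). Every window thus held at least 1 tag of each ChIP library, but a single window in a single library rests on few tags.

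The windows with the highest ratio were places where the input was nearly empty, not those with the most ChIP tags. The highest ratio, 22.5, belonged to chr7:133130001-133131000, where SS held 9 tags, SM 11, MS 12, MM 14 and the input none. The next, 20.6, belonged to chr8:54207001-54208000, where SS held 16 tags, SM 5, MS 7, MM 14 and the input again none. These were the only 2 of the 2539 windows without an input tag. The window chr19:36479001-36480000 had a ratio of 18.9, with 12, 25, 17 and 23 tags in SS, SM, MS and MM and 1 in the input. The other 2 of the 5 highest, chr5:141677001-141678000 and chr19:30454001-30455000, held 60 and 57 summed tags against 1 input tag each, with ratios of 14.7 and 14. Each ChIP library had a normalised tag count above 1 in all 5 windows, except SM in the first (0.89) and in the second (0.405).

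The windows with the largest sums were of different kinds. The largest, chr7:809001-810000, held 54 SS, 110 SM, 47 MS and 77 MM tags, but also 43 of the input, the most of any narrow isolated window, and its ratio was 3.21. The nearest other run was 391 kb away. The second, chr16:59044001-59045000, held 57, 57, 59 and 62 tags in SS, SM, MS and MM and 20 in the input, and 219 of its 235 ChIP tags (93.2%) fell in a single 100 bp step. The third, chr2:255645001-255646000, held 42, 56, 30 and 45 tags in SS, SM, MS and MM and 13 in the input. As normalised tag counts these were 4.96, 4.53, 5.24 and 4.94, so the 4 libraries lay close together there, and its richest 100 bp held 28 of 173 tags. The last 2 were chr4:7112001-7113000 with 166 tags and a ratio of 3.25, and chr7:117535001-117536000 with 162 tags and a ratio of 6.61.

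**Figure D1:**
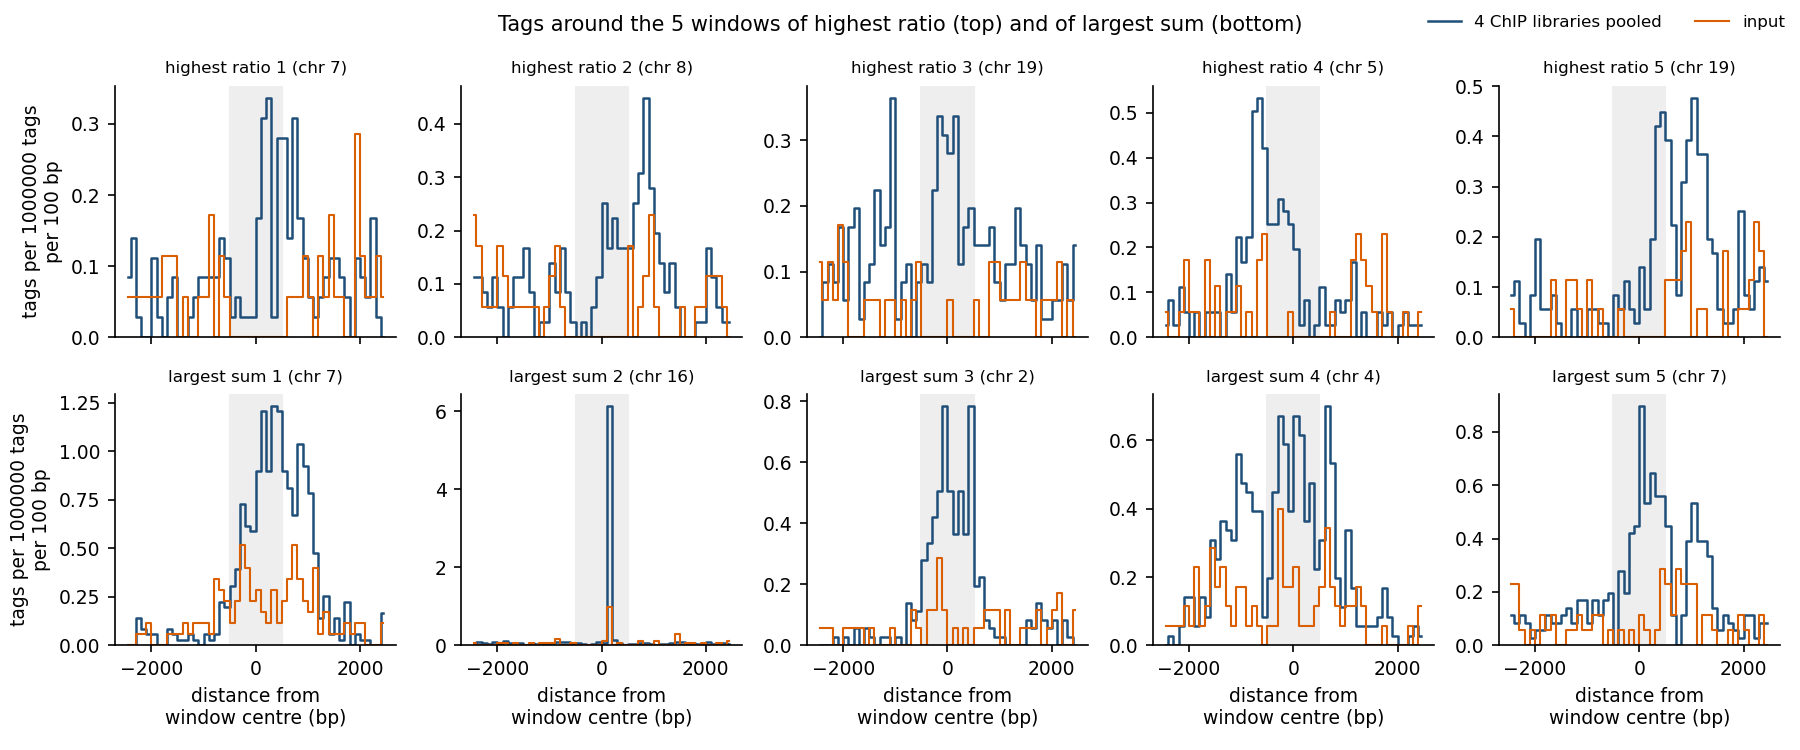
ChIP tags (blue, 4 libraries pooled) and input tags (orange), in tags per 1000000 tags per 100 bp, against the distance in bp from the centre of the window, for the 5 windows of highest ratio (top) and the 5 of largest sum (bottom); grey marks the 1 kb window, and each panel has its own y axis, which starts at 0. In the second panel of the bottom row nearly all tags stand in a single step (219 of 235 in the window), while elsewhere they spread over several steps.

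The thresholds cut through a continuous range of windows. There were 79 narrow isolated windows with exactly 40 tags and 86 windows with 39 tags that met all else. Among those at 40 tags was chr1:7592001-7593000, with 10, 15, 13 and 2 tags in SS, SM, MS and MM and 4 in the input, and at 39 tags chr1:13283001-13284000, with 13, 11, 6 and 9 and 4. Likewise 485 narrow isolated windows had ratios from 3 to 3.2, and 621 windows that met all else had ratios from 2.8 to 3. The 3 named windows nearest above the ratio threshold each held 49 ChIP tags and 7 input tags. They were tied with at least 1 other, chr3:42572001-42573000. Just below the ratio threshold lay chr1:174174001-174175000, with 55 ChIP tags, 8 input tags and a ratio of 2.99. Which windows were taken also depended on where the grid began. With the grid moved by 500 bp, 2416 windows met the rule, and they overlapped 975 of the 2539 (38.4%). At 2423 of the 2539 (95.4%), however, the moved grid still held a window with a sum of 27 or more and a ratio of 2 or more.

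To see enrichment in a library that had no part in the choice, windows were chosen by the same rule on 3 ChIP libraries, with the tag minimums scaled to their share of the tags, and counted in the fourth. Each left-out library was enriched at them. SS held 3.72 times the input rate at the 2517 windows chosen without it (95% interval 3.66 to 3.79), SM 3.52 times at 2518 windows (3.46 to 3.58), MS 4.37 times at 2404 windows (4.29 to 4.45) and MM 3.89 times at 2606 windows (3.83 to 3.96). The input took part in the choice and in the ratio. These intervals, and all those given below, cover counting error only.

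The left-out library was at or above the input rate at 97.4% (SS), 98.3% (SM), 97.8% (MS) and 97.9% (MM) of the windows. It was at or above 2 times the input rate at 84 to 87.8% of them, against 42.7 to 48% of all windows with a sum of 40 or more. No ratio to input was asked of the latter windows, and their sum includes the left-out library. This gap therefore follows in part from the rule. The left-out library was at or above 3 times the input rate at 55.3% (SS), 51.2% (SM), 68.5% (MS) and 60.1% (MM). Of the windows chosen without 1 library, 1620 to 1850 were also among the 2539. Within the 2539 windows themselves, which were selected on these libraries and give no support of their own, each of the 4 libraries was at or above the input rate in 2517 (99.1%) and at or above 2 times the input rate in 2151 (84.7%). For all shares in this paragraph, the input rate of a window was taken from its input tags plus 1, as in the rule. The pooled ratios in the paragraph before used the input tags without that addition.

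Together the 2539 windows took 0.481% of the tags of SS, 0.461% of SM, 0.551% of MS and 0.51% of MM, against 0.115% of the input. This came to mean normalised tag counts of 1.89, 1.82, 2.17 and 2.01 per kb, against 0.454 in the input. With this scaling the order of the libraries was MS above MM above SS above SM at the narrow isolated windows and at both other kinds of strong windows. Scaled by 10 kb windows with few tags, described below, SM lay above SS at the narrow windows. MS, the highest, had the fewest tags in all, and SM, the lowest, had the most. The part of depth in this order was not tested.

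On average the enrichment formed a single narrow summit, although some single windows had 2 peaks of tags. Summits were placed with 2 libraries and the profile was counted in the other 2. Each run was centred on its summit before averaging, so the single peak of the mean follows in part from the centring. Over the 2316 runs, the tags at the summit stood at 4.48 (SS), 4.49 (SM), 5.18 (MS) and 4.95 (MM) times the input. At 500 bp from the summit they stood at 2.68, 2.66, 3.1 and 2.83 times, and at 1 kb at 1.67, 1.62, 1.79 and 1.69 times. At 2 kb they were at 1.13 to 1.16 times the input, and at 8 to 10 kb at 0.989 to 1.03 times. The isolation was set by the rule to 10 kb, so the low flanks are not a finding.

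The width at 50% of the height above the flanks was 1000 bp in SS, 900 bp in SM, 1000 bp in MS and 800 bp in MM. It was 2100 to 2300 bp at 2269 broad runs, and 700 to 800 bp at 5048 short runs with a neighbour. The run lengths were set by the rule, so the width and its contrast with the broad runs are descriptions as well. The 4 libraries had profiles of the same form. Summits placed separately in both pairs of libraries lay a median of 100 bp apart, within 100 bp of each other in 50.9% of the runs and within 300 bp in 72.5%. In short runs with a neighbour the median distance was 200 bp, with 43.5% within 100 bp and 65% within 300 bp. In the broad runs, whose length allows larger distances, it was 400 bp, with 31.1% within 100 bp and 46.4% within 300 bp.

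**Figure D2:**
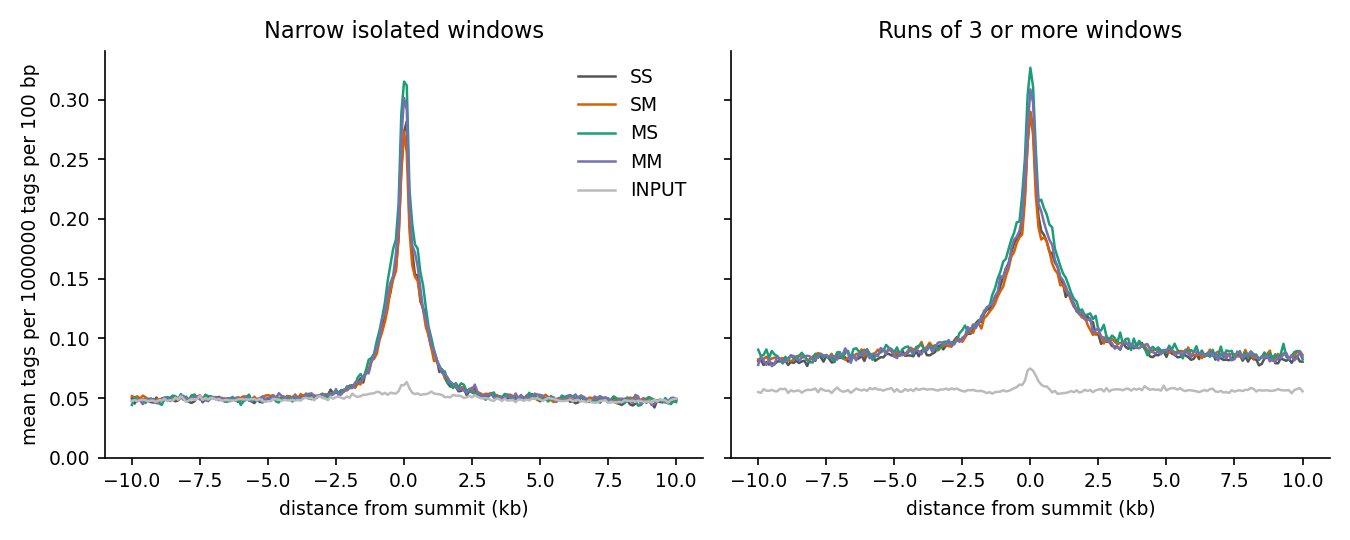
Mean normalised tag count (tags per 1000000 tags) per 100 bp against the distance in kb from the summit, for the 2316 runs with narrow isolated windows (left) and 2269 broad runs (right); each line is 1 library. At 8 to 10 kb the ChIP lines stand at 0.989 to 1.03 times the input around the narrow windows and at 1.44 to 1.51 times around the broad runs; the 10 kb isolation was asked of the narrow windows only, so this follows from the rule.

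Within a window the richest 100 bp held a median of 19.4% of the ChIP tags, and the richest 300 bp held 45.7%. In the broad runs these medians were 18% and 42.6%. In 41 of the 2539 windows (1.61%), a single 100 bp step held more than 50% of the tags. This was so in 3 of the 3683 windows of broad runs (0.0815%), in 0.698% of those in short runs with a neighbour and in 0.937% of all windows with a sum of 40 or more. Besides the window on chromosome 16 given above, chr16:8376001-8377000 held 138 of 142 tags in 1 step, with 38, 32, 30 and 38 tags of SS, SM, MS and MM and 11 of the input.

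The 41 windows stood apart from the others in SM. Their richest steps held 690 tags of SS, 523 of SM, 463 of MS and 696 of MM, although SM was the deepest library. SM over SS was 0.52 there as a ratio of normalised tag counts (95% interval 0.463 to 0.583), MM over SM was 1.81 (1.61 to 2.03), and MS over SS was 0.993 (0.88 to 1.12). The input held 110 tags in these steps, and the 4 ChIP libraries together were at 10.6 times its rate. The steps were picked as the richest in ChIP tags, so this ratio follows in part from the choice. Over the whole 1 kb, SM over SS was 0.58 (0.525 to 0.642) in the 41 windows and 0.967 (0.955 to 0.98) in the other 2498. The sources used here do not say whether repeated tags had been removed, and the part of such tags in these counts was not tested.

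The next question was whether the METH challenge or the METH pretreatment went with more or fewer tags at these windows. The rule used the sum of the 4 libraries, not how the sum divides among them. SM over SS, the challenge in METH-naive rats, was 0.959 over all 2539 windows (56961 against 40727 tags; 95% interval 0.947 to 0.971). MM over MS, the challenge in METH-pretreated rats, was 0.925 (46423 against 31559 tags; 0.912 to 0.939). Both were thus slightly below 1. MS over SS, the pretreatment alone, was 1.15 (1.13 to 1.16), and MM over SM was 1.11 (1.09 to 1.12). MM over SS was 1.06 (1.05 to 1.07). Some of these ratios moved with the choice of windows. With windows chosen on the 2 libraries not compared, SM over SS (0.981), MM over SS (1.04) and MM over SM (1.07) were nearer to 1. MS over SS (1.14) and MM over MS (0.923) hardly moved.

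The direction of SM over SS turned with the scaling. Scaled by the tags in the 10 kb windows with fewer ChIP tags than the median, SM over SS was 1.05 (1.04 to 1.06), so whether SM lay above or below SS at these windows depends on what is taken as equal in both. MS over SS (1.24), MM over SS (1.13), MM over MS (0.912) and MM over SM (1.08) kept their directions under that scaling. MM over SS came to 1.01 (0.994 to 1.02) with median-of-ratios size factors over the windows with a sum of 40 or more, and no longer differed from 1 beyond counting error.

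These ratios were close to those of the other strong windows. In the broad runs SM over SS was 0.961, and the ratio at the narrow isolated windows relative to it was 0.998 (0.982 to 1.01), which did not differ from 1 beyond counting error. MS over SS was 1.1 in the broad runs, and at the narrow windows it was 1.04 times as high (1.02 to 1.06). MM over MS was 0.983 times that of the broad runs (0.965 to 1) and MM over SM 1.03 times (1.01 to 1.04). Against the short runs with a neighbour, SM over SS was 0.975 times as high at the narrow windows (0.96 to 0.99), MS over SS 1.04 times (1.02 to 1.06), MM over MS 0.967 times (0.951 to 0.985) and MM over SM 1.03 times (1.01 to 1.05). Against all other windows with a sum of 40 or more the gap was larger, except for MM over SS. SM over SS was 1.03 in those, and that of the narrow windows was 0.93 times as high (0.918 to 0.942). MM over SM was 1.01 in those and 1.09 times as high at the narrow windows (1.08 to 1.11). MM over SS was 1.02 times as high at the narrow windows (1 to 1.03), and also 1.02 times that of the broad runs (1.01 to 1.04).

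**Figure D3:**
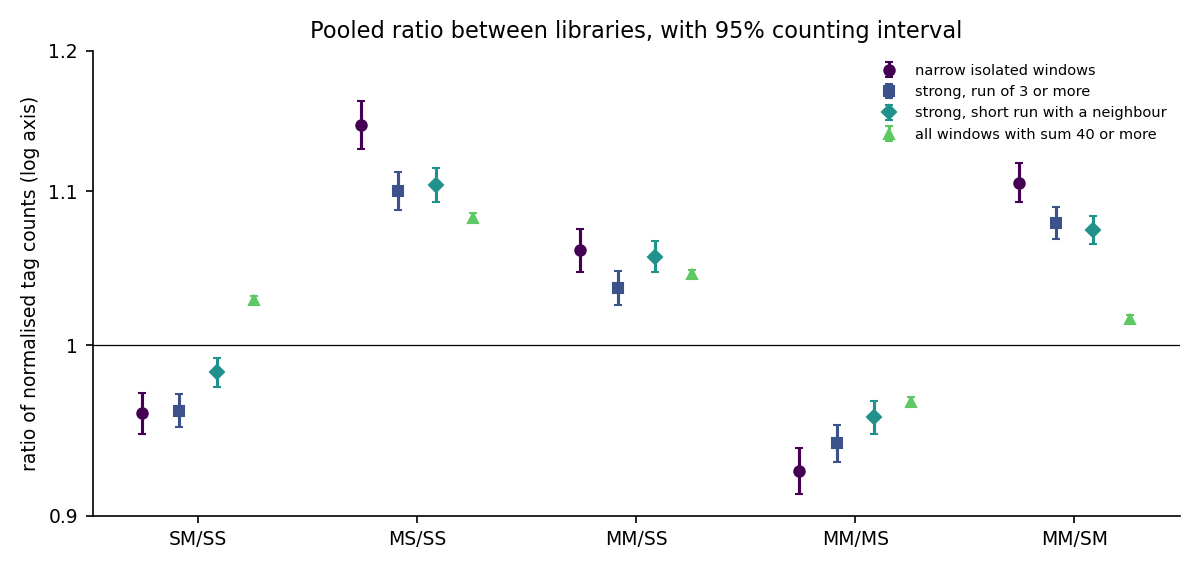
Ratio of normalised tag counts between 2 libraries (log axis), pooled over the windows of each class, with the 95% interval for counting error as bars; where no bar is seen the interval is within the symbol. The narrow isolated windows lie beside the other strong windows, and for SM/SS the strong windows lie below 1 while all windows with a sum of 40 or more lie at 1.03.

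The surroundings of the windows, from 10 to 50 kb away and so beyond the distance used in the choice, had ratios nearer to 1. Pooled over all windows, SM over SS was 1.03, MS over SS 1.03, MM over SS 1.02, MM over MS 0.993 and MM over SM 0.99. The pooled SM over SS covers a range. In the surroundings of the 847 windows with the lowest input rate around them it was 0.966, beside 0.943 at those windows, and in the middle and the highest 846 it was 1.02 and 1.08, beside 0.949 and 0.986. In the same surroundings MS over SS was 0.991, 1.02 and 1.06, and MM over SS was 0.98, 1.01 and 1.06. Relative to their surroundings, the windows had ratios of 0.927 (0.915 to 0.94) for SM over SS, 1.11 (1.09 to 1.13) for MS over SS, 1.04 (1.02 to 1.05) for MM over SS, 0.932 (0.919 to 0.946) for MM over MS and 1.12 (1.1 to 1.13) for MM over SM. These relative ratios do not change with the scaling of the libraries. With the scaling by total tags each of the 5 lay on the same side of 1 as the ratio at the windows. With the scaling by 10 kb windows with few tags, SM over SS at the windows (1.05) lay on the other side.

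The ratios were spread over the genome. MS over SS was above 1 on 20 of 20 chromosomes, from 1.05 on chromosome 15 to 1.3 on chromosome 12, and MM over SM was also above 1 on 20 of 20, from 1.04 to 1.19. MM over MS was below 1 on 20 of 20, from 0.851 on chromosome 12 to 0.982 on chromosome 19. SM over SS was below 1 on 16 of 20 and reached from 0.897 on chromosome 18 to 1.03 on chromosome 20. With the scaling by 10 kb windows with few tags, it was above 1 on 18 of 20, from 0.983 to 1.13, while MS over SS and MM over SM stayed above 1 and MM over MS below 1 on 20 of 20. Chromosomes of 1 library are not replicates, so this shows only that no single chromosome carried the pooled values. The directions did not turn with the height of the windows. In the 847 windows with the smallest sums (40 to 53 tags) MS over SS was 1.1 (1.07 to 1.13), and in the 846 with the largest (76 to 288 tags) it was 1.17 (1.15 to 1.2). SM over SS was 0.952 and 0.971 in the same windows.

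In single windows, MS was the library with the highest normalised tag count most often, in 1015 of 2539 windows (40%), followed by MM in 660 (26%), SS in 505 (19.9%) and SM in 359 (14.1%). Among all windows with a sum of 40 or more these shares were 31.8%, 25.1%, 21.1% and 22.1%. MS was highest in 36.6% of the windows of broad runs and in 34.6% of those in short runs with a neighbour. It was lowest in 20.4% of the narrow windows, 22.7% of the broad-run windows, 22.9% of those in short runs with a neighbour and 26.6% of all windows with a sum of 40 or more. SM was lowest in 31%, 29.7%, 26.4% and 21.5% of the same classes. The places of SS and SM turned with the scaling by 10 kb windows with few tags. There MS was highest in 42.6% of the narrow windows, MM in 26%, SM in 17% and SS in 14.4%, against 33.8%, 24.8%, 25.4% and 16% of all windows with a sum of 40 or more. The lowest library was SS in 34.7% and SM in 25.9%, against 34.5% and 17.9%, so the share of SS was near the background. MS also had the fewest tags, and the part of depth in these shares was not tested.

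Single windows that differed by 2-fold or more were counted next. A window was counted where its ratio of normalised tag counts was 2 or more, or 0.5 or less, with at least 10 tags in both libraries together. For SM over SS, 114 of 2539 narrow windows (4.49%) were higher and 148 (5.83%) lower, against 9.33% higher and 5.31% lower among all windows with a sum of 40 or more. For MS over SS, 283 of 2532 (11.2%) were higher and 159 (6.28%) lower, against 12.3% and 10.5%. For MM over SS, 201 (7.92%) were higher and 105 (4.14%) lower, against 10.1% and 6.79%. For MM over MS, 175 of 2533 (6.91%) were higher and 201 (7.94%) lower, against 11.3% and 9.88%. For MM over SM, 143 (5.63%) were higher and 83 (3.27%) lower, against 5.51% and 7.16%. In the broad runs the higher and lower shares were 4.13% and 4.64% for SM over SS, and 8.92% and 6.28% for MS over SS. They were 6.16% and 4.62% for MM over SS, 6.22% and 6.96% for MM over MS, and 5.08% and 3.18% for MM over SM. The narrow windows were mostly above these shares. They were mostly below those of short runs with a neighbour, which were 6.24% and 5.42% for SM over SS and 11% and 8.02% for MS over SS. The share of the narrow windows was below that of the background in 8 of the 10 counts. With the rule that the 95% interval of the ratio excludes 1, in place of 2-fold, it was below in only 5 of 10, and it was above for SM over SS lower (4.81% against 3.38%), MS over SS higher (6.64% against 5.27%), MM over SS higher (5.04% against 4.6%), MM over MS lower (4.7% against 3.88%) and MM over SM higher (5.87% against 3.79%). For SM over SS the balance turned with the scaling by 10 kb windows with few tags, to 165 windows (6.5%) higher and 82 (3.23%) lower, against 12.9% and 3.34%. With that scaling and the 2-fold rule, the share of the narrow windows was below the background in every count. The gap was small for MM over SM higher (4.73% against 4.84%). The narrow windows also held more tags (median 64 against 49), and the part of this in the shares was not tested.

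The windows with the largest differences held very few tags in the lower library. The highest SM over SS was at chr1:122215001-122216000, where SS held 2 tags, SM 26, MS 13, MM 10 and the input 6. SS alone was low there, and the same window had the highest MS over SS. At chr3:91559001-91560000 SS held 2 tags, SM 18, MS 9 and MM 11. At chr3:114687001-114688000, second for MS over SS, the tags were 3, 20, 19 and 17. The highest MM over SS, at chr10:13836001-13837000 and chr6:75595001-75596000, likewise had 2 SS tags each, against 18 and 16 SM tags, 7 and 10 MS tags and 13 and 12 MM tags. In all 5 of these windows SS was below the other 3 libraries, and the 3 others were above the input rate. The windows were picked for a high ratio to SS and needed a sum of 40 or more, so this follows in part from the choice.

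The lowest ratios likewise rested on few tags in the lower library. MS held 1 tag at chr5:143093001-143094000, where SS held 19, SM 15 and MM 16, and 1 tag at chr5:66151001-66152000, where SS held 15, SM 14 and MM 20. SM held 4 tags at chr11:70643001-70644000, where SS held 13, MS 12 and MM 11, and 28 of these 40 tags fell in a single 100 bp step. SM held 5 tags at chr3:42572001-42573000, where SS held 16, MS 15 and MM 13. The window chr8:54207001-54208000, named above for its ratio to input, was tied with it, with the same SS and SM tags. MM held 2 tags at chr10:97895001-97896000, where SS held 17, SM 19 and MS 4, so there both libraries of METH-pretreated rats were low. At chr1:7592001-7593000 only MM was low, with 2 tags.

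The challenge and the pretreatment were each measured in 2 pairs of libraries that share none, SM/SS and MM/MS for the challenge, MS/SS and MM/SM for the pretreatment. A difference that is alike in saline- and METH-pretreated rats, or with and without a challenge, would enter both pairs, whereas one limited to 1 of them would not. Over the 2539 windows, the log2 ratio of one pair was nearly unrelated to that of the other, with Pearson's r = 0.0247 and Spearman's rho = 0.0329 for the challenge and r = 0.0273 and rho = 0.0265 for the pretreatment. The points share their window, its input and its base composition, and windows are not independent replicates, so these are descriptions. Median counts of 12 (MS) to 21 (SM) tags leave counting error in each ratio, which lowers r and rho. Values near 0 therefore do not show that a shared difference was absent. The index of dispersion of the counts of SS, SM, MS and MM in a window, whose mean is 1 for counting error alone, had a mean of 1.36, against 1.45 in all windows with a sum of 40 or more. The medians were 1.11 and 1.14, and the index was over 5 in 1.22% and 1.52% of the windows. On average the libraries thus scattered more than counting error gives in both.

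**Figure D4:**
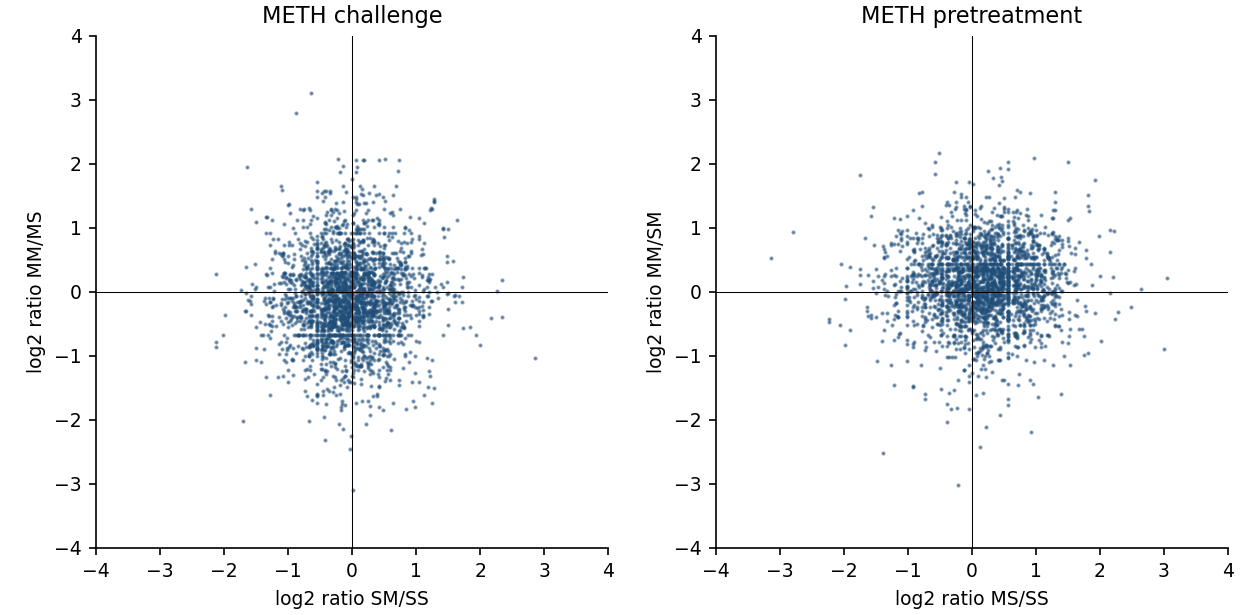
Each point is 1 of the 2539 windows, with the log2 ratio of normalised tag counts (0.5 tags added to each library) of the first pair on the x axis and of the independent pair on the y axis, for the challenge (left) and the pretreatment (right). The clouds are round (r = 0.0247 and 0.0273), and the right one is centred above 0 on both axes (medians 0.20 and 0.14).

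Windows past 1.5-fold in the same direction in both pairs were counted as well. For the pretreatment, 151 of 2532 windows (5.96%) were higher in both MS/SS and MM/SM, against 4.14% of all windows with a sum of 40 or more, and 31 (1.22%) were lower in both, against 3.58%. In the broad runs these shares were 3.24% and 1.88%, and in short runs with a neighbour 4.3% and 2.29%. For the challenge, 58 of 2533 windows (2.29%) were higher in both SM/SS and MM/MS, against 5.29%, and 91 (3.59%) were lower, against 3.45%. In the broad runs these shares were 2.58% and 3.86%, and in short runs with a neighbour 3.11% and 3.33%. Scaled by 10 kb windows with few tags, 76 windows (3%) were higher with the challenge in both pairs and 62 (2.45%) lower, against 6.76% and 2.63%, so the balance of the challenge turned. For the pretreatment, that scaling gave 162 (6.4%) higher and 36 (1.42%) lower, against 4.94% and 3.43%. With the scaling by total tags the pooled ratios of all 2539 windows were above 1 for the pretreatment and below 1 for the challenge, though SM over SS was above 1 with the scaling by 10 kb windows with few tags, and their part in these shares was not tested. A share of 3.59% against 3.45% is near the background.

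For each of these 4 counts the 3 windows with the largest change in both pairs were looked up after their values were seen. The windows higher with the challenge in both pairs were chr18:78081001-78082000 with 5 (SS), 19 (SM), 4 (MS) and 19 (MM) tags, chr11:80376001-80377000 with 7, 26, 6 and 27, and chr13:102819001-102820000 with 9, 33, 7 and 31. In each of them both challenged libraries had more than 2 times the normalised tag count of both unchallenged ones. The first of those lower with the challenge, chr3:109169001-109170000, held 14, 6, 16 and 6 tags and a ratio to input of 10.3.

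Of those higher with the pretreatment in both pairs, chr18:2106001-2107000 held 9, 13, 22 and 28 tags in SS, SM, MS and MM, and chr3:53622001-53623000 held 4, 7, 11 and 18. As normalised tag counts, the former had 1.06 and 1.05 in SS and SM against 3.84 and 3.07 in MS and MM. Of those lower, chr4:128062001-128063000 held 15, 20, 4 and 5 tags and chr2:26847001-26848000 held 12, 25, 3 and 8. None of these windows has a replicate, and each was picked from the extremes of 2539.

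Beyond the 10 kb that the rule kept free of other runs, the surroundings were only slightly enriched with the scaling by total tags. Relative to SS, the input was 2.06 times as large by that scaling and 2.51 times by the 10 kb windows with few tags. All ratios to input in this paragraph would be higher with the latter. From 10 to 50 kb away, the ChIP rate was 1.12 times the input rate around the narrow windows, with a median of 1.1, and it was above 1 around 68.4% of them. Around the windows of broad runs it was 1.4 (93.9% above 1), around those of short runs with a neighbour 1.32 (92.4%), and around all windows with a sum of 40 or more 1.29 (87.1%). Around every 50th window with a tag, it was 1.01, and 38% were above 1. The narrow windows thus lay between the other strong windows and the genome at large. The 10 kb isolation was asked of the narrow windows only, and its part in their less enriched surroundings was not tested.

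The narrow windows covered a smaller range of densities over the chromosomes than the broad runs. They ranged from 0.63 per Mb on chromosome 13 to 1.45 per Mb on chromosome 10, with a median of 0.99, while the windows of broad runs ranged from 0.718 per Mb on chromosome 11 to 3.26 per Mb on chromosome 10, with a median of 1.29. Of all strong windows, narrow isolated ones made up between 15.5% on chromosome 19 and 30.1% on chromosome 11. The rule leaves out strong windows in longer runs or with another run within 10 kb. The smaller range of densities and these shares therefore follow in part from the rule. The starts of neighbouring runs that hold narrow isolated windows lay a median of 539.5 kb apart, from 12 to 16512 kb. The outer 5 Mb at both ends of the chromosomes held 191 of the 2539 windows (7.52%) and made up 7.82% of the span covered by the files.

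**Figure D5:**
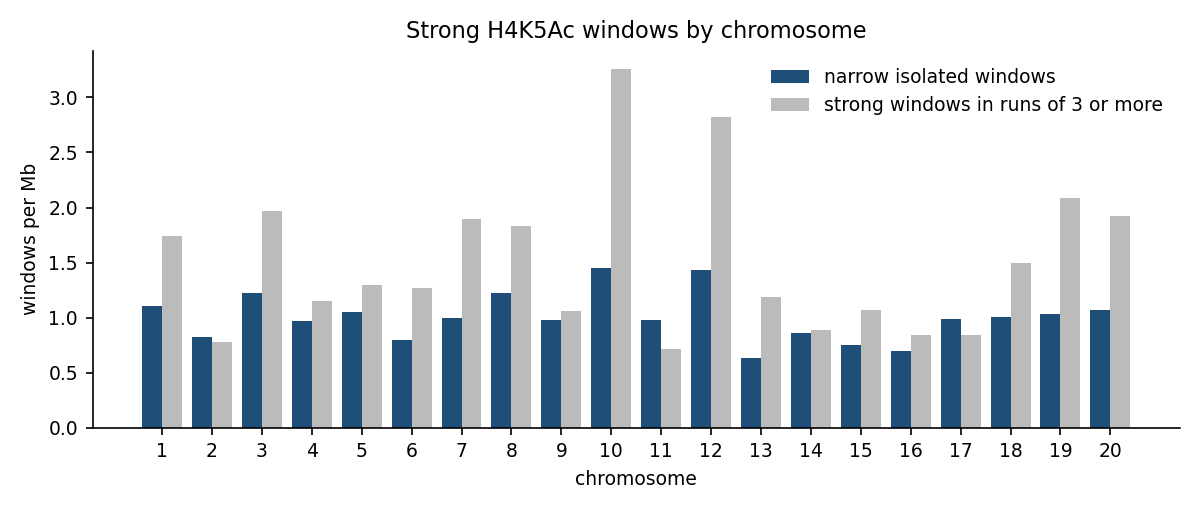
Strong H4K5Ac windows per Mb on each of chromosomes 1 to 20, narrow isolated windows in blue and windows of broad runs in grey. The blue bars reach from 0.63 to 1.45 per Mb and the grey ones from 0.718 to 3.26 per Mb, both highest on chromosome 10. The 10 kb isolation was asked of the blue windows only.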

How the data were processed

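ChIP-Seq of H4K5Ac was analysed in 1 pooled library each of SS, SM, MS and MM and 1 input library. Reads had been aligned by the authors with Gerald (Illumina Analysis Pipeline), and the submitters' processing notes name the build rn4. The sources used here give neither the version nor the filters. As deposited, the values are counts of tags in the 1 kb window around every 100 bp step, neither normalized nor corrected for input. Tags per 100 bp were recovered as differences between overlapping windows, with the lowest value of each series of steps 1 kb apart set to 0. Windows rebuilt from them differed from the deposited ones at 4 places in SM and 4 in the input, and at none in SS, MS and MM. Libraries were scaled by their tags on chromosomes 1 to 20, from 5728791 to 17471509.

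The rule of choice, the named windows and the comparisons were set with earlier results of these data known. Named windows are the 5 with the highest ratio, the 5 with the largest sum, the 3 nearest on each side of each threshold, and the 2 highest and 2 lowest past 2-fold for SM/SS, MS/SS and MM/SS. Other windows were tied with some of those nearest a threshold, and chr8:54207001-54208000 with the second lowest for SM/SS. Ratios have exact conditional binomial intervals and shares exact ones, both at 95%. Ratios of ratios have log-normal intervals, which like the others cover counting error only. With 1 library per group no p-value between groups was computed. The scripts were tested on simulated counts. Genes and sequences were not analysed here, since the reference tables at hand are of another assembly. Alternatives were other thresholds, isolation distances, run lengths, grids and scalings. Python 3.11.15, NumPy 2.4.6, SciPy 1.17.1, pandas 2.3.3 and matplotlib 3.10.9 were used.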

Additional observations from a re-analysis of the deposited data

Results flagged for a closer look

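Chromosome X was outside the rule. Scaled by the same totals, 83 of its windows met all other conditions, or 0.516 per Mb, with sums of 40 to 132 tags and a median ratio of 3.92. They were listed because they are a signal in data that no comparison used, and 0.516 per Mb is below the lowest value of chromosomes 1 to 20 (0.63 per Mb). The coverage was lower as well. X held 2615 input tags and 4941 ChIP tags per Mb, against 6830 and 13943 on chromosomes 1 to 20, while the minimum of 40 tags was the same, so the densities are not on an equal footing.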

How the results depend on the processing

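The number of narrow isolated windows was 513 with a sum of 60 and a ratio of 4, 7050 with a sum of 30 and a ratio of 2.5, 1402 with 20 kb of isolation and 1242 in runs of a single window, against 2539. With 5 kb of isolation it was 3694. With the input scaled by the low 10 kb windows 2562 windows met the rule, of which 1196 (47.1% of the 2539) were the same windows. SM over SS turned from 0.959 to 1.05 with the libraries scaled by the low 10 kb windows. Relative to SS, SM was 1.46 times as large by all its tags on chromosomes 1 to 20 and 1.33 times by the low windows. That scaling gave 1.24 for MS over SS, 1.13 for MM over SS, 0.912 for MM over MS and 1.08 for MM over SM, and for SM over SS 82 windows 2-fold lower instead of 148 and 165 higher instead of 114. Median-of-ratios scaling gave 0.916 for SM over SS, 1.07 for MS over SS, 1.01 (0.994 to 1.02) for MM over SS and 0.944 for MM over MS. With windows chosen on the 2 libraries not compared, SM over SS was 0.981, MM over SS 1.04 and MM over SM 1.07. With the stricter thresholds MS over SS was 1.19, MM over SS 1.08, MM over MS 0.911 and MM over SM 1.14, and with the looser ones MS over SS was 1.11, MM over SS 1.04 and MM over SM 1.07. With the grid moved by 500 bp SM over SS was 0.946 and MM over SS 1.04, and in runs of a single window MM over MS was 0.941. Where the 95% interval had to exclude 1, in place of a 2-fold ratio, 67 windows (2.64%, against 4.25% of all windows with a sum of 40 or more) were higher and 122 (4.81%, against 3.38%) lower for SM over SS, 168 (6.64%, against 5.27%) higher and 36 (1.42%, against 2.46%) lower for MS over SS, 128 (5.04%, against 4.6%) higher and 59 (2.32%, against 2.94%) lower for MM over SS, and 55 (2.17%, against 3.1%) higher and 119 (4.7%, against 3.88%) lower for MM over MS. At windows chosen without it, a library stood at 4.75 (SS), 4.49 (SM), 5.95 (MS) and 5.26 (MM) times the input with the stricter thresholds, and at 3.56, 3.81, 4.56 and 4.02 times with the input scaled by the low 10 kb windows. The cause of these shifts was not tested. The 2-fold counts without a tag minimum, and the ratios scaled by all tags or without the 41 windows whose tags fell in 1 step, stayed within 1.5 times the count or within the counting interval of the ratio. With 1 library per group, no library could be left out of a comparison. No paired analysis was possible because each group has 1 library.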
